A study of Mus musculus with 10 samples.

Results

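The genes described here belong to bone morphogenetic protein (BMP) signalling through SMAD proteins in the liver: the ligand genes *Bmp2* and *Bmp6*, the signal transducer gene *Smad9*, the inhibitory genes *Smad6* and *Smad7*, the inhibitor of differentiation genes *Id1*, *Id2* and *Id3*, the transcription factor gene *Atoh8*, and *Hamp*, which encodes the iron hormone hepcidin. They were taken as a list of names, and all 10 were found by Ensembl identifier among the 12147 genes tested. They were selected on their CPM in GF+MEV against GF+PBS livers, the very comparison described below. That difference is therefore given for these 10 genes as a description, and no p-value of theirs is printed. A call of any of these genes, or its absence, is likewise a description and not evidence. Livers came from wild-type C57BL/6 mice kept germ-free (GF), a state that both groups shared. The first group received microbiota-derived extracellular vesicles (MEV), membrane particles purified from the cecal content and stool of specific-pathogen-free control mice, repeatedly by mouth in PBS (GF+MEV, 5 mice). The second group received PBS alone (GF+PBS, 5 mice). Each mouse gave 1 library of total RNA from whole liver, and the age and sex of the germ-free animals are not given in the sources used here. The comparison is of the whole vesicle preparation with its carrier, and vesicles from another source were not analysed here.

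BMP ligands bind paired serine/threonine kinase receptors, which phosphorylate SMAD1, SMAD5 and SMAD9. These join SMAD4, enter the nucleus and switch on target genes, among them the Id genes and the genes of the inhibitory SMADs, which close a negative feedback loop. In the liver, sinusoidal endothelial cells are the main source of BMP2 and BMP6, and hepatocytes answer with hepcidin, which blocks iron export from cells and so lowers iron in the blood. Inflammatory signalling through interleukin 6 and STAT3 is a separate input to the hepcidin gene.

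Between 15746119 and 20523649 counts fell on genes in each GF+MEV library and between 16140770 and 19733387 in each GF+PBS library. Values are CPM, a gene's count relative to the size of its library, after TMM scaling, a correction for differences in library composition, whose factor was lowest, 0.890, in GF+MEV replicate 2. The defining hepatocyte markers were abundant in every liver, at 97301 to 115317 CPM summed over 8 genes in GF+MEV and 99946 to 115580 CPM in GF+PBS. Within GF+PBS, replicates 1 and 3 lay close together, with a root mean square difference of 0.283 in log2 CPM over all tested genes, and so did replicates 4 and 5, at 0.276, whereas the other pairs of that group differed by 0.311 to 0.402 and pairs of GF+MEV livers by 0.324 to 0.379. Values with these pairs summed are therefore given for the BMP-SMAD genes and the wider pathway where they change a call. For cell markers, only calls lost with single livers left out are given. A gene is called where the edgeR quasi-likelihood test, adjusted over all tested genes, gave a p-value under 0.05. Such calls were made for 7.64% of all tested genes, 4.12% higher and 3.52% lower in GF+MEV, and the median log2 fold change over all tested genes was -0.0037. With upper-quartile scaling the share of calls that were higher moved from 53.9% to 41.2%.

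Of the 10 genes, 4 were called lower in GF+MEV (*Id2*, *Id3*, *Smad6* and *Hamp*), beside 3.52% of all tested genes, and 0 were called higher, beside 4.12%. At an unadjusted p under 0.05, 6 were lower and 1 was higher. DESeq2 called 4 lower and 1 higher, and limma-voom 5 lower and 1 higher. In 3 of the 10 every GF+MEV liver was below every GF+PBS liver, beside 3.45% of all tested genes, and in 0 every GF+MEV liver was above, beside 3.94% (7.39% in either direction). The median log2 fold change of the 10 genes was -0.43. These counts follow from how the list was chosen and are not evidence about it. The livers were sampled whole, so fewer cells of a type and less RNA per cell cannot be told apart in any value below.

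**Figure D1:**
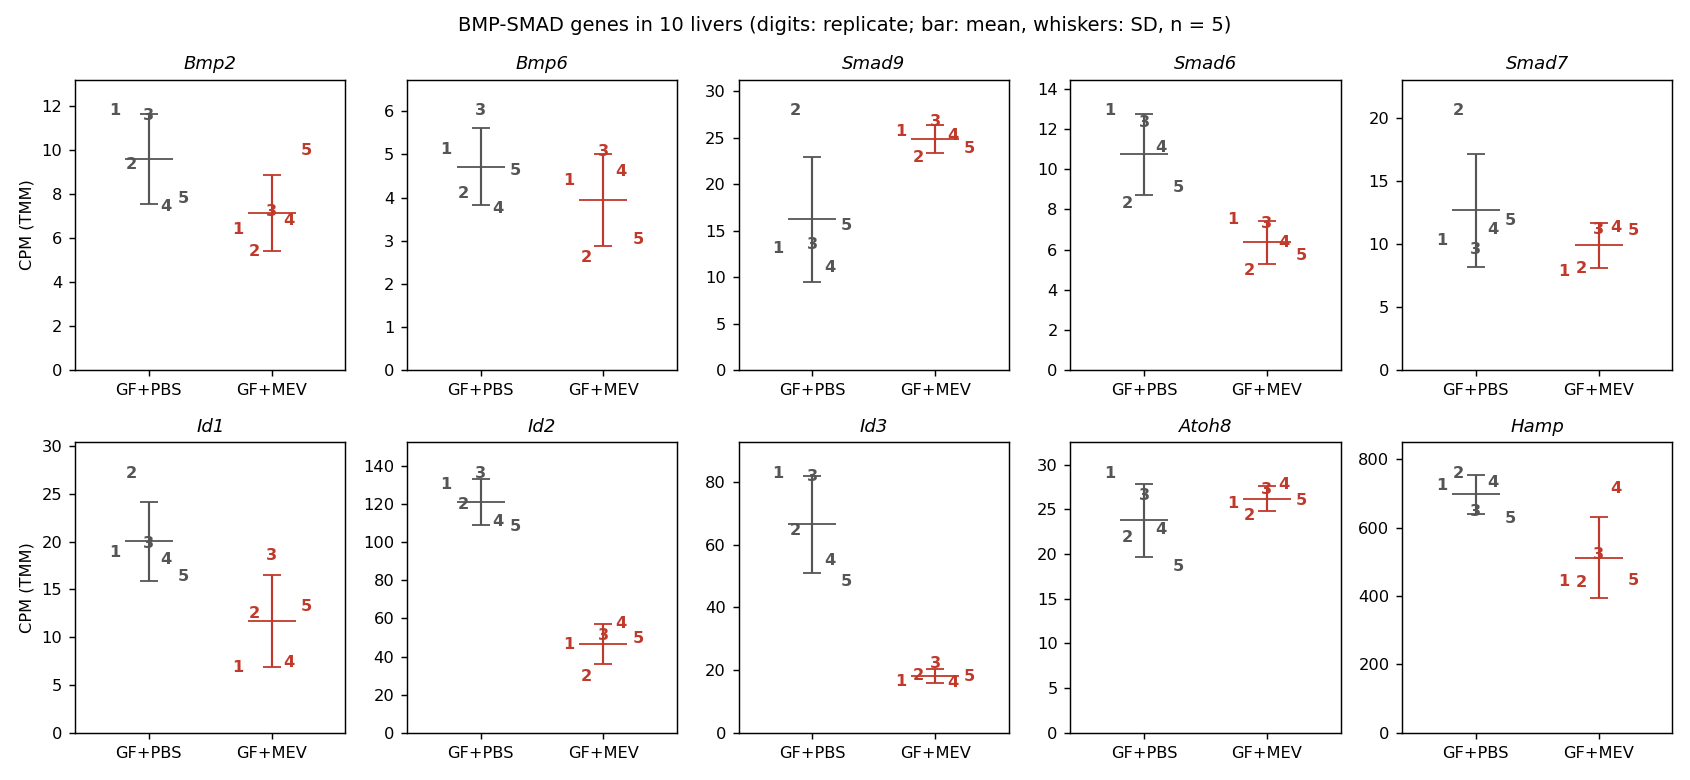
Each panel plots 1 gene, with CPM after TMM scaling on a linear axis from 0, GF+PBS livers at the left in grey and GF+MEV livers at the right in red. Digits are the replicate numbers of single livers, the bar is the mean and whiskers are the SD of 5 livers. *Id2*, *Id3* and *Smad6* separate the groups completely, *Hamp* does so but for GF+MEV replicate 4 at 714 CPM, and *Smad9* is the gene whose GF+MEV livers lie above all GF+PBS livers but replicate 2.

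Short stretches upstream of the transcription start given by RefSeq show where these genes carry the DNA words that SMAD and STAT proteins are known to bind. GGCGCC and GGAGCC are forms of the BMP response element, and TTCNNNGAA is the STAT site. The 250 bases before the start were read from RefSeq on build GRCm38.p6, and 7 of the 10 genes had a window (not *Id1*, *Bmp2* or *Smad7*). In the GENCODE annotation the windows of *Bmp6*, *Id2* and *Id3* lie partly or wholly within exons. The window of *Hamp2* lies within the annotated gene but outside its exons. GGCGCC, on either strand, was present in 3 of these 7 (*Hamp*, *Id2* and *Smad9*), and in 9.59% of the 32841 windows of that table. GGAGCC, read also as its complement GGCTCC, was present in 5 of 7 (*Hamp*, *Id2*, *Id3*, *Smad6* and *Smad9*) and in 26% of all windows. TTCNNNGAA was present in 1 of 7, *Hamp*, and in 7.02% of all windows. The 3 words overlapped nowhere in the windows printed here. A match is a string of letters and says nothing of whether a protein binds there. The *Hamp* window is shown because it holds all 3 words, without its last 3 bases, which lie in an annotated exon. The window of its near-copy *Hamp2* is shown because it holds only the STAT word, and the *Smad6* window because it holds the second BMP word at 2 places. All are written 5′ to 3′ on the minus strand, which is the coding strand, with the words in capitals.
Hamp, chr7:30944033-30944279: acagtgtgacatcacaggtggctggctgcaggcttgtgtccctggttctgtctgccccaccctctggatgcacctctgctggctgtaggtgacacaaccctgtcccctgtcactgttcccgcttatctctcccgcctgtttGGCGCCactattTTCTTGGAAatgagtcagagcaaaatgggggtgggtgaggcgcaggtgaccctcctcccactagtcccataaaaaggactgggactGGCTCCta
Hamp2, chr7:30924182-30924431: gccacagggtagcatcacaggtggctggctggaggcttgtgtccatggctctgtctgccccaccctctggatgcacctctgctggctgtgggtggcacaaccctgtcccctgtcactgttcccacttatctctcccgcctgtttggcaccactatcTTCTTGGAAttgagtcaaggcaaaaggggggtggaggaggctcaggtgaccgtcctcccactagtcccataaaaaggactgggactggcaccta
Smad6, chr9:64022060-64022309: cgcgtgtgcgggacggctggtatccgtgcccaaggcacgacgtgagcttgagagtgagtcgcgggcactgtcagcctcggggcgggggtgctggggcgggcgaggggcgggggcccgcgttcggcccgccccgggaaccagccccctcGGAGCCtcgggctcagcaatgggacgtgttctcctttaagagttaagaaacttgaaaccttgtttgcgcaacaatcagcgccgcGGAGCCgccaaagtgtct
In *Hamp* the first base of GGCGCC was at -109 and that of the STAT word at -97, both counted from the RefSeq start, which follows the 3 bases left out, so 6 bases lay between them. In *Hamp2* the STAT word stood at -94 and no GGCGCC was found. For *Id3* and *Id2*, whose windows lie partly or wholly within annotated exons, only the words with 10 bases at each side are shown.
Id3, chr4:136143625-136143650, plus strand: tcgcatccgaGGCTCCgctgtcctcg
Id2, chr12:25096308-25096333, minus strand: aggccccctgGGCGCCcagcgcacac
Id2, chr12:25096165-25096190, minus strand: atgatggacgGGAGCCcttccaccaa

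*Id2* and *Id3*, which encode helix-loop-helix proteins without a DNA-binding region that hold E proteins away from DNA, showed the largest differences among the 10 genes. *Id3* (ENSMUSG00000007872, chr4:136143497-136145755) was 16.5, 18.2, 22.0, 16.2 and 18.0 CPM in GF+MEV replicates 1 to 5, and 82.6, 64.4, 81.8, 54.9 and 48.3 CPM in GF+PBS replicates 1 to 5. The highest GF+MEV liver was far below the lowest GF+PBS liver, and the GF+MEV livers were close together while the GF+PBS livers were spread. The mean was 18.2 ± 2.30 CPM (SD, n = 5) against 66.4 ± 15.5 CPM (SD, n = 5), which is 27.4% of the GF+PBS mean, with a log2 fold change of -1.87 (SE 0.17). *Id2* (ENSMUSG00000020644, chr12:25093799-25097140) was 46.5, 29.4, 50.9, 57.2 and 49.7 CPM in GF+MEV and 130, 120, 136, 111 and 108 CPM in GF+PBS. Again no GF+MEV liver reached the GF+PBS range, and replicate 2 was the lowest of the GF+MEV livers. The means were 46.7 ± 10.4 and 121 ± 11.9 CPM (SD, n = 5 each), so GF+MEV stood at 38.6% of GF+PBS, a log2 fold change of -1.37 (SE 0.18). Both genes were called lower under all alternatives tried.

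*Id1* (ENSMUSG00000042745, chr2:152736251-152737410), the Id gene most often used as a readout of BMP signalling, was 6.83, 12.5, 18.5, 7.35 and 13.2 CPM in GF+MEV and 18.8, 27.1, 19.8, 18.1 and 16.3 CPM in GF+PBS. In 4 of 5 GF+MEV livers it was below all GF+PBS livers, while replicate 3 lay within their range. The mean was 11.7 ± 4.80 against 20.01 ± 4.17 CPM (SD, n = 5 each), with a log2 fold change of -0.77 (SE 0.30), and it was not called. It was called lower without GF+MEV replicate 3, where the log2 fold change was -1.01, and also with limma-voom and with upper-quartile scaling. *Id1* varied most among the GF+MEV livers of all 10 genes, with a coefficient of variation of 41.1%, against 20.8% in GF+PBS.

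Levels of the Id genes can be set beside each other once divided by exon length. This length joins all annotated exons of a gene, and it may be longer than that of the expressed transcript. The sum of *Id1*, *Id2* and *Id3* was 34.2, 33.0, 49.1, 38.8 and 41.8 CPM per kb in GF+MEV replicates 1 to 5 and 116, 109, 119, 91.8 and 85.3 CPM per kb in GF+PBS replicates 1 to 5. The groups did not overlap. *Id3* made up 23.3% to 30.8% of that sum in GF+MEV and 31.6% to 39.9% in GF+PBS, also without overlap. The share of *Id1* was 16.3% to 32.7% in GF+MEV livers against 14% to 21.5% in GF+PBS livers, and that of *Id2* was 36.5% to 60.4% against 45.3% to 51.9%, both with overlap. So, with exon length taken in this way, *Id2* was the highest Id gene per kb in all 10 livers, and in GF+PBS *Id3* came second in every one.

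Of the inhibitory SMADs, which block receptor signalling from within the cell, *Smad6* was called and *Smad7* was not. *Smad6* (ENSMUSG00000036867, chr9:63953076-64022059) was 7.50, 4.97, 7.29, 6.34 and 5.72 CPM in GF+MEV and 12.9, 8.29, 12.3, 11.1 and 9.07 CPM in GF+PBS. No value overlapped, although GF+MEV replicate 1 and GF+PBS replicate 2 were near each other. The means were 6.36 ± 1.06 and 10.7 ± 2.01 CPM (SD, n = 5 each), the GF+MEV mean was 59.3% of the GF+PBS mean, and the log2 fold change was -0.75 (SE 0.16). *Smad6* was called lower under all alternatives tried. *Smad7* (ENSMUSG00000025880, chr18:75367529-75395935) was 7.87, 8.07, 11.2, 11.3 and 11.1 CPM in GF+MEV and 10.3, 20.6, 9.58, 11.2 and 11.9 CPM in GF+PBS. Apart from GF+PBS replicate 2, the livers of both groups lay in much the same range. The log2 fold change was -0.36 (SE 0.23), and it was not called. Without GF+PBS replicate 2 the log2 fold change was -0.12. Whether *Smad6* and *Smad7* differed from each other in their response was not tested.

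*Smad9*, which encodes a receptor-regulated SMAD that is itself induced by BMP signalling, had a positive log2 fold change that did not pass the test. *Smad9* (ENSMUSG00000027796, chr3:54755582-54801257) was 25.7, 22.9, 26.8, 25.2 and 23.9 CPM in GF+MEV and 13.1, 27.9, 13.5, 11.1 and 15.6 CPM in GF+PBS. The GF+MEV livers were within a narrow band, with a coefficient of variation of 6.11%, and 4 of the GF+PBS livers were below it while replicate 2 was above it. The means were 24.9 ± 1.52 and 16.2 ± 6.69 CPM (SD, n = 5 each), and the log2 fold change of 0.62 (SE 0.23) was not called. Without GF+PBS replicate 2 it was 0.91 and was called higher, as it was with DESeq2 (0.62) and limma-voom (0.70).

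The ligand genes were expressed at low levels. *Bmp2* (ENSMUSG00000027358, chr2:133552159-133562885) was 6.40, 5.38, 7.24, 6.79 and 10.02 CPM in GF+MEV and 11.8, 9.36, 11.6, 7.43 and 7.81 CPM in GF+PBS. In 4 of 5 GF+MEV livers it was below all GF+PBS livers, and replicate 5 lay among them. The log2 fold change was -0.42 (SE 0.20), not called. Without GF+MEV replicate 5 it was -0.56 and was called lower. *Bmp6* (ENSMUSG00000039004, chr13:38345107-38500302), the ligand that rises with liver iron, was 2.62 to 5.07 CPM in GF+MEV (median 4.39) and 3.74 to 6.01 CPM in GF+PBS (median 4.62), with a log2 fold change of -0.24 (SE 0.21), not called. The groups overlapped over most of their range. The log2 fold change of *Bmp6* was -0.13 without GF+MEV replicate 2, -0.16 without GF+MEV replicate 5 and -0.14 without GF+PBS replicate 3. Exons of *Bmp6* overlap those of *Txndc5* on the opposite strand, and the strand setting used for counting is not given in the sources used here, so reads of the overlap cannot be assigned to either gene.

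*Atoh8* (ENSMUSG00000037621, chr6:72206177-72235577), a helix-loop-helix factor that responds to BMP and acts on the hepcidin gene, was 24.3 to 27.8 CPM in GF+MEV (median 26.0) and 18.6 to 29.0 CPM in GF+PBS (median 22.7). The GF+MEV livers lay inside the GF+PBS range, and the log2 fold change of 0.14 (SE 0.12) was not called. It was 0.22 without GF+PBS replicate 1 and 0.065 without GF+PBS replicate 5.

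*Hamp* (ENSMUSG00000050440, chr7:30942368-30944032) was 442, 441, 520, 714 and 446 CPM in GF+MEV and 722, 758, 646, 732 and 627 CPM in GF+PBS. In 4 of 5 GF+MEV livers it was below all GF+PBS livers, and replicate 4 lay among them. The mean was 513 ± 117 against 697 ± 57.1 CPM (SD, n = 5 each), 73.6% of the GF+PBS mean, with a log2 fold change of -0.44 (SE 0.14). The call of *Hamp* was the least stable of the 4: it was lost when any 1 of 8 livers was left out (GF+MEV replicates 1, 2, 3 and 5 and GF+PBS replicates 1 to 4), with log2 fold changes of -0.47 to -0.39, and when the GF+PBS pairs were summed, with -0.46. Without GF+MEV replicate 4 the log2 fold change was -0.59 and the call was kept. *Hamp2*, the near-copy of *Hamp* in the mouse, was not among the genes of the deposited count table. How reads shared by both were counted is not given in the sources used here.

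**Figure D2:**
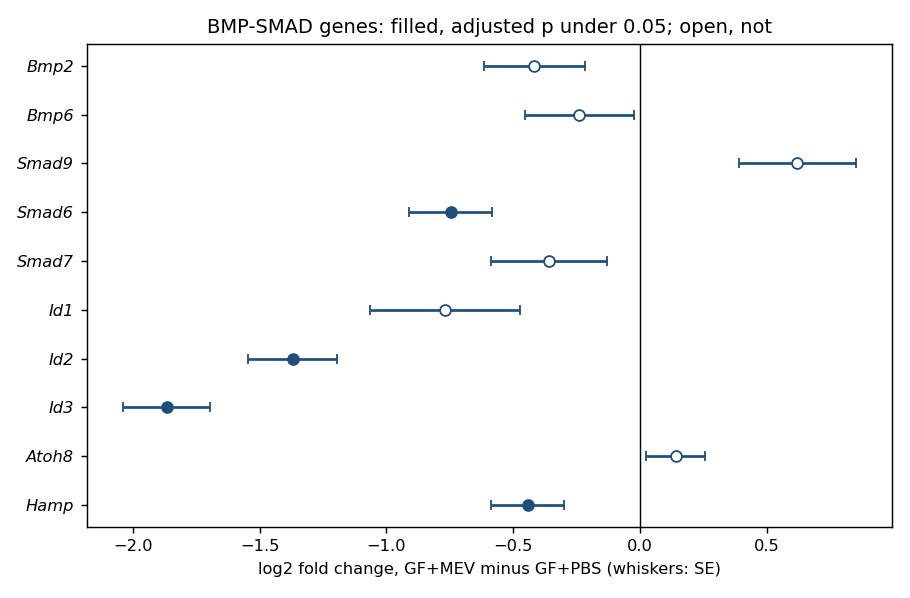
The horizontal axis gives the log2 fold change of GF+MEV minus GF+PBS for each of the 10 genes and whiskers are its SE. Filled points were called and open points were not; the 4 filled points run from -1.87 for *Id3* to -0.44 for *Hamp*, and the only points at the right of 0 are *Smad9* at 0.62 and *Atoh8* at 0.14.

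Divided by exon length, *Hamp* stood far above the other genes, at 1250 ± 286 CPM per kb in GF+MEV and 1699 ± 139 CPM per kb in GF+PBS (SD, n = 5 each). In GF+PBS there followed *Id2* at 49.6 ± 4.88, *Id3* at 37.1 ± 8.65, *Id1* at 17.3 ± 3.59 and *Atoh8* at 9.48 ± 1.63 CPM per kb. The intervals of mean ± SD of *Id2* and *Id3* overlapped. *Smad6* (3.35 ± 0.628), *Smad9* (3.02 ± 1.25), *Smad7* (2.82 ± 0.996) and *Bmp2* (2.699 ± 0.575) could not be placed in order beyond their spread, and *Bmp6* was lowest at 1.21 ± 0.229 CPM per kb. In GF+MEV the order after *Hamp* was *Id2* at 19.2 ± 4.28 CPM per kb, then *Atoh8* at 10.5 ± 0.548, *Id3* at 10.1 ± 1.28 and *Id1* at 10.1 ± 4.14 CPM per kb, whose intervals overlapped. *Smad9* came next at 4.64 ± 0.284 CPM per kb, above *Smad7* (2.19 ± 0.390), *Bmp2* (2.02 ± 0.489) and *Smad6* (1.99 ± 0.332), which were not separable, and *Bmp6* was again lowest at 1.01 ± 0.272 CPM per kb. So *Id3* lay well above *Atoh8* in GF+PBS and within its spread in GF+MEV.

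The order of the livers within a group was compared between the 10 genes. In GF+PBS, replicates 1 and 3 were the 2 highest livers for 6 of the 10 genes (*Bmp2*, *Bmp6*, *Id2*, *Id3*, *Smad6* and *Atoh8*), which was the case for 15.4% of all tested genes. The same replicates were the 2 highest for 7 of 12 markers of sinusoidal endothelium (58.3%), and this pattern was looked for after the values had been seen. With each group's mean taken away, deviations of log2 CPM were compared over the 10 livers for all 45 pairs of genes. Pearson's r was above 0 in 32 pairs and above 0.5 in 11, with a median of 0.28. It was highest for *Id3* with *Atoh8* (0.81, Spearman's rho 0.64) and for *Smad7* with *Smad9* (0.81, rho 0.54). Each r was also taken without the 2 livers farthest from the median of the first-named gene of the pair. These livers can differ from pair to pair. For *Id3* with *Atoh8* r was then 0.56. For *Smad7* with *Smad9* it was 0.36, so that value rests largely on the 2 livers left out. With livers left out in the same way, *Bmp2* with *Id3* went from 0.63 to 0.92, and *Id2* with *Id3* from 0.28 to 0.91. *Smad6* and *Smad7* ran opposite to each other (-0.50, rho -0.53). These are descriptions over libraries that also share their depth and cell make-up.

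**Figure D3:**
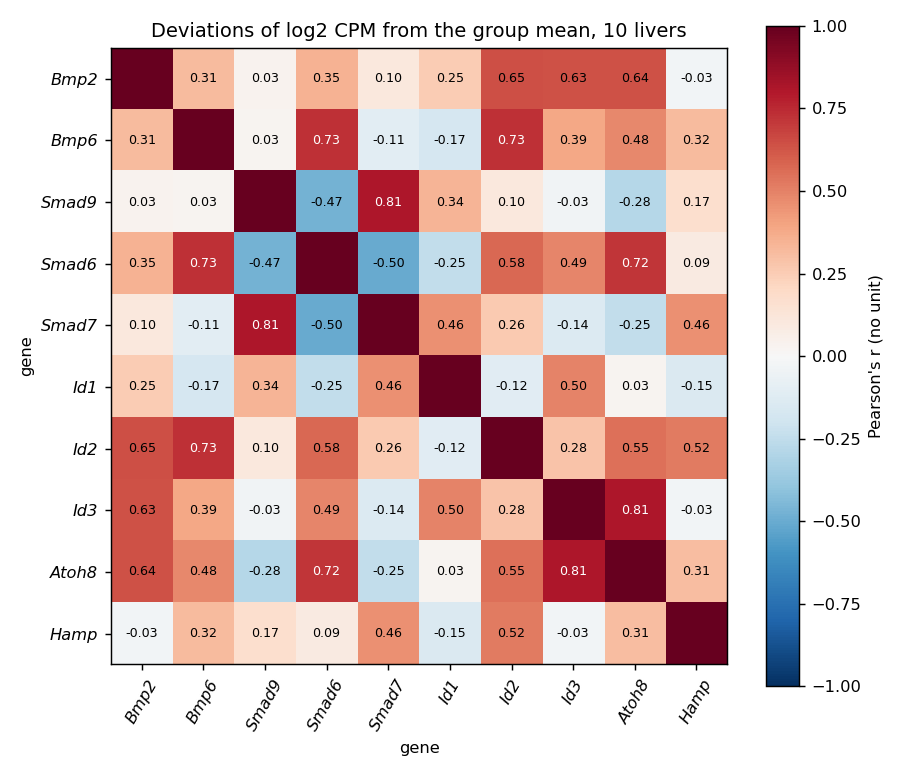
Each square gives Pearson's r between deviations of log2 CPM from the group mean for a pair of genes over 10 livers, from blue for negative to red for positive. The largest values are 0.81 for *Id3* with *Atoh8* and for *Smad7* with *Smad9*, and the lowest is -0.50 for *Smad6* with *Smad7*.

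Among the 11824 genes that averaged 1 CPM or more, those whose deviations were most like *Id1* over the 10 livers were *Asah1* (r = 0.93), *Zfp28* (0.92) and *Apoc2* (0.91). Those most like *Id3* were *Tprgl* (0.94), *Scamp5* (0.92) and *Fam43a* (0.92), and those most like *Hamp* were *Cyth4* (0.96), *Fyb* (0.96) and *Siglece* (0.96). Without the 2 livers farthest from the median of *Id1*, *Id3* or *Hamp*, these r ran from 0.82 to 0.97. They were picked as the highest of many and carry no test.

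Markers of the cells that make BMP ligands and of the other liver cells were set beside these results. Of 12 tested sinusoidal endothelial markers, 1 was higher (*Lyve1*, 0.84, SE 0.27, edgeR adjusted p = 0.040) and 1 lower (*Clec4g*, -0.48, SE 0.14, edgeR adjusted p = 0.021) in GF+MEV. DESeq2 called 1 marker higher and 2 lower, and limma-voom 1 higher and 1 lower. In edgeR, 1 was higher and 2 were lower at an unadjusted p under 0.05. Log2 fold changes across these 12 markers had a median of -0.21, beside -0.0037 across all tested genes. No marker was at 0 in any library. The 12 markers summed to 191 to 306 CPM in GF+MEV (median 248) and 232 to 310 CPM in GF+PBS (median 290), with overlap. The *Lyve1* call was lost without GF+MEV replicate 3 or 5 or GF+PBS replicate 3, 4 or 5 (0.69 to 0.84), and the *Clec4g* call without GF+MEV replicate 2 or 5 or GF+PBS replicate 3 (-0.46 to -0.40). Their part in the levels of *Bmp2*, *Bmp6*, *Smad6* and the Id genes was not tested. For Kupffer cells, the macrophages of the liver, 0 of 9 markers were called by edgeR, DESeq2 or limma-voom, and 0 had an unadjusted p under 0.05. Their sum was 260 to 322 CPM in 4 GF+MEV livers and 486 CPM in GF+MEV replicate 4, the liver with the high *Hamp*, against 296 to 417 CPM in GF+PBS. The part of these cells in the *Hamp* value of that liver was not tested.

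The wider pathway was described with a list of 91 genes, of which 67 were tested. Of these, 4 were called higher and 4 lower in GF+MEV, 11.9% against 7.64% of all tested genes, and their median log2 fold change was 0.04. Most of the machinery between ligand and target did not pass the test. None of the 11 receptor genes was called by edgeR, DESeq2 or limma-voom, with 1 higher and 1 lower at an unadjusted p under 0.05. The log2 fold change was -0.17 (SE 0.08) for the type I receptor gene *Acvr1*, -0.04 (SE 0.10) for *Bmpr1a*, 0.25 (SE 0.11) for the type II receptor gene *Bmpr2* and 0.11 (SE 0.08) for *Acvr2a*. None of the 5 other SMAD transducer genes was called by these tools, with 2 lower at an unadjusted p under 0.05. *Smad1*, *Smad5* and the common partner *Smad4* had log2 fold changes of -0.08 (SE 0.07), -0.16 (SE 0.07) and 0.09 (SE 0.09). Of 7 tested genes of secreted antagonists, edgeR and limma-voom called 0, and DESeq2 called 1 higher and 0 lower. At an unadjusted p under 0.05 in edgeR, 2 of them were higher and 0 lower, and their median log2 fold change was 0.19. Of *Id4* and the 3 genes of E proteins, the partners that Id proteins sequester, none was called by these tools and 1 was higher and 1 lower at an unadjusted p under 0.05, and *Tcf3* and *Tcf12* had log2 fold changes of -0.07 (SE 0.06) and 0.18 (SE 0.07).

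**Figure D4:**
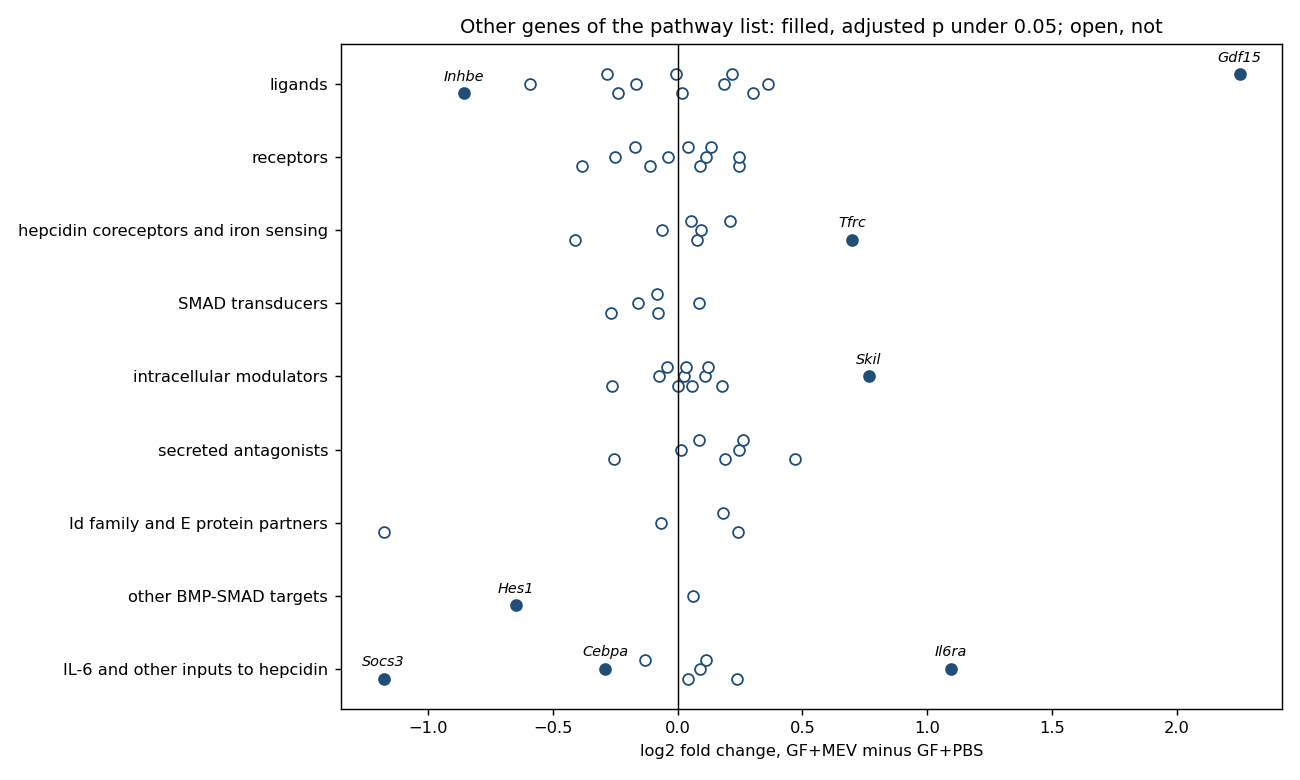
The horizontal axis gives the log2 fold change of GF+MEV minus GF+PBS and each row is a role in the pathway. Each point is 1 of the 67 tested genes, filled and named where called; the 8 filled points lie from -1.18 for *Socs3* to 2.25 for *Gdf15*, while receptors and SMAD transducers have none.

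Among 12 other ligand genes of the BMP and TGF-β family, 1 was called higher and 1 lower. At an unadjusted p under 0.05 in edgeR, 4 were higher and 1 was lower. *Gdf15*, a stress-induced cytokine, was 37.5, 19.2, 13.7, 22.4 and 12.3 CPM in GF+MEV and 6.83, 2.86, 6.72, 3.49 and 2.16 CPM in GF+PBS, without overlap. Its log2 fold change was 2.25 (SE 0.43, edgeR adjusted p = 0.00067). *Inhbe*, which encodes the activin E subunit made by hepatocytes, fell from 56.8 ± 8.78 to 31.4 ± 6.64 CPM (SD, n = 5 each), or a log2 fold change of -0.85 (SE 0.17, edgeR adjusted p = 0.0012), also without overlap. *Gdf2* and *Bmp10*, which encode the circulating ligands BMP9 and BMP10, were not called (0.30, SE 0.12, and 0.36, SE 0.18), and they were chosen for mention after their values were seen.

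Of 11 intracellular modulator genes, *Skil*, which encodes the SMAD co-repressor SnoN, rose from 6.17 ± 0.652 to 10.5 ± 1.14 CPM (SD, n = 5 each), with a log2 fold change of 0.77 (SE 0.10, edgeR adjusted p = 0.00037) and no overlap. Of 10 other BMP-SMAD targets listed, 2 were tested, and the rest were not in the count table. *Hes1*, a target shared with Notch signalling, fell from 10.5 ± 2.33 to 6.72 ± 0.946 CPM (SD, n = 5 each), with a log2 fold change of -0.65 (SE 0.17, edgeR adjusted p = 0.017). For *Hes1*, GF+MEV replicate 2 (8.07 CPM) was above GF+PBS replicate 4 (7.73 CPM). *Klf10*, mentioned after its value was seen as the other tested target, was not called (0.06, SE 0.25).

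Of the genes through which hepatocytes sense iron, the coreceptor gene *Hjv* (*Hfe2* in the annotation), *Hfe*, *Tfr2*, *Neo1* and the hepcidin-suppressing protease gene *Tmprss6* were not called, with log2 fold changes of 0.08 (SE 0.05), 0.05 (SE 0.06), 0.10 (SE 0.03), 0.21 (SE 0.10) and -0.06 (SE 0.05). *Tfr2*, though not called, was 532 to 557 CPM in GF+MEV and 479 to 528 CPM in GF+PBS, without overlap. *Neo1* was called higher without GF+MEV replicate 2 (0.29). *Tfrc*, the transferrin receptor gene whose mRNA is stabilised when cells are short of iron, rose from 9.13 ± 2.80 to 14.9 ± 2.12 CPM (SD, n = 5 each), or a log2 fold change of 0.70 (SE 0.23, edgeR adjusted p = 0.027), and every GF+MEV liver was higher. The *Tfrc* call was lost without GF+MEV replicate 1 or 2, without GF+PBS replicate 1, 3 or 4 (0.58 to 0.72), and with the GF+PBS pairs summed (0.67).

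Of 8 genes of the interleukin 6 and other inputs to hepcidin, 1 rose and 2 fell. *Il6ra*, the receptor gene, was 69.8, 103, 82.7, 62.1 and 77.6 CPM in GF+MEV and 31.2, 45.3, 33.4, 34.5 and 40.4 CPM in GF+PBS, with a log2 fold change of 1.10 (SE 0.16, edgeR adjusted p = 7.8e-05). *Socs3*, a STAT3 target that shuts the receptor off, was 10.3, 10.9, 11.7, 10.05 and 8.55 CPM in GF+MEV and 26.0, 13.6, 26.3, 26.4 and 24.4 CPM in GF+PBS, where replicate 2 was low (log2 fold change -1.18, SE 0.20, edgeR adjusted p = 0.00028). So the receptor gene and the feedback gene moved in opposite directions in these livers, and neither overlapped between groups. *Stat3* itself was higher in every GF+MEV liver but not called (0.24, SE 0.07, edgeR adjusted p = 0.053), and was called without GF+MEV replicate 5 (0.27) and with DESeq2's test or its size factors (0.24). *Cebpa*, a hepatocyte factor that acts on the hepcidin promoter, fell from 589 ± 26.1 to 481 ± 41.3 CPM (SD, n = 5 each), or a log2 fold change of -0.29 (SE 0.06, edgeR adjusted p = 0.014), and the call was lost with the GF+PBS pairs summed (-0.28, edgeR adjusted p = 0.072). Exons of *Acvr2a*, *Bmpr1a*, *Clec4g*, *Il6ra*, *Stat3* and *Cebpa* overlap those of *Orc4*, *Gm17110*, *Gm16553*, *Gm42809*, *Stat5a* and *Gm45091* in that order on the opposite strand, and exons of *Smad5* and *Id4* also overlap other annotated genes, so their counts carry the limit given for *Bmp6*.

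**Figure D5:**
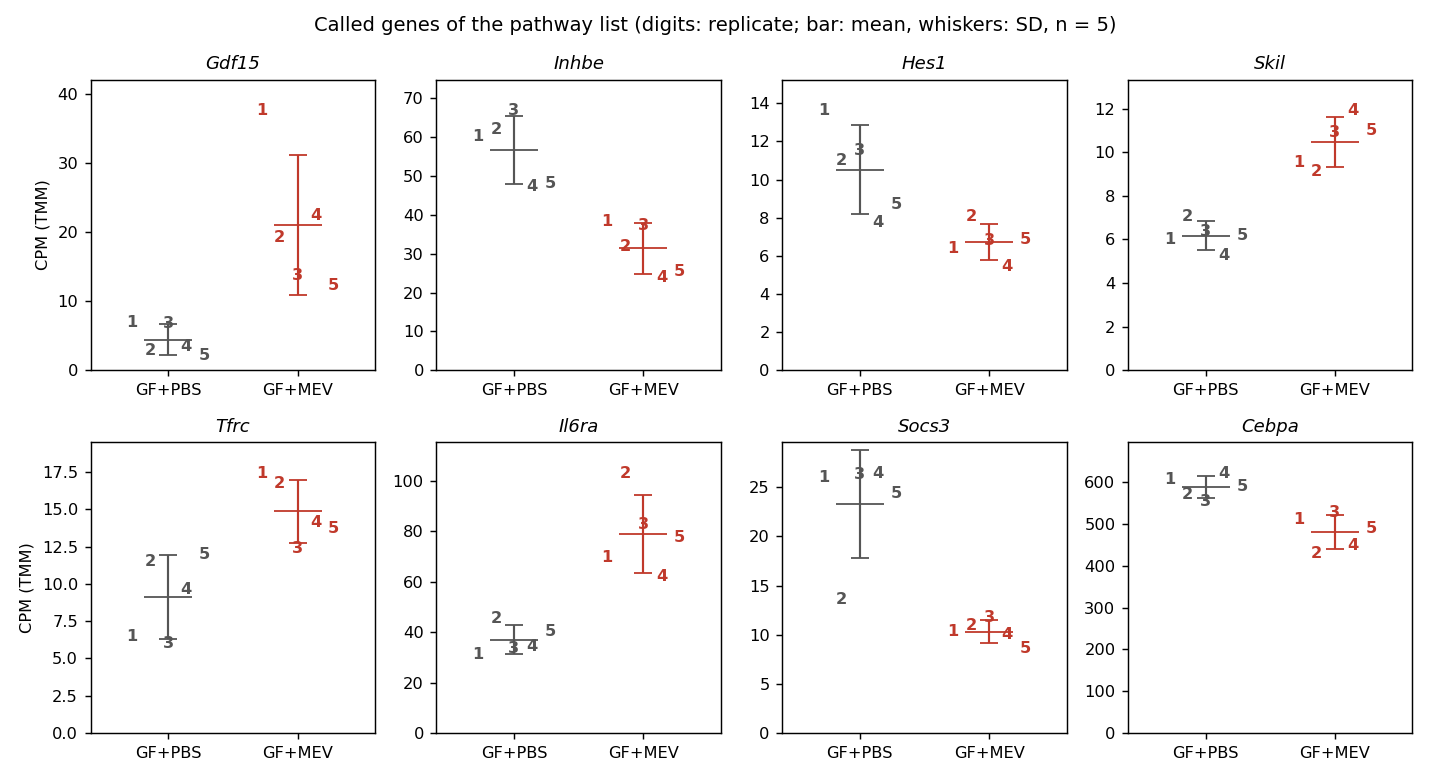
Each panel plots 1 of the 8 called genes of the pathway list, with CPM after TMM scaling on a linear axis from 0, digits for the replicate numbers of single livers, and the mean with SD of 5 livers. *Gdf15*, *Skil*, *Tfrc* and *Il6ra* are higher in every GF+MEV liver and *Inhbe*, *Socs3* and *Cebpa* are lower in every one, with GF+PBS replicate 2 nearest to the other group for *Socs3* at 13.6 CPM, while for *Hes1* the groups overlap.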

How the data were processed

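Per the labels, total RNA of whole liver was extracted with Trizol, purified on a column and made into libraries with a NEBNext Ultra RNA kit. The authors deposited raw read counts per Ensembl gene, without normalization, after demultiplexing (bcl2fastq 2.17), alignment to GRCm38 (STAR 2.7.3a), counting with HTSeq and removal of genes with under 20 counts over the samples. HTSeq's version, annotation and strand setting are not given in the sources used here. The count table held 12148 genes and 5 columns that match no described sample and were not used. Columns were assigned by library name, and replicate numbers come from the sample titles.

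The 12147 genes whose counts summed to 20 or more over the 10 livers were tested with edgeR 4.0.16 in R 4.3.3: TMM scaling, a quasi-likelihood fit on the group alone, Benjamini-Hochberg adjustment over all tested genes and a threshold of 0.05. Each SE was computed on log2 CPM (prior count 2). The fit was tested on simulated data: of 200 genes given a log2 change of 1 between the same groups it recovered 183, with 7 false calls. The changed genes were drawn from those averaging above 1 CPM. Each simulated library was drawn independently, so the false calls do not account for the closeness of the GF+PBS pairs. Symbols, positions and exon lengths came from the GENCODE annotation of GRCm38, promoter windows from RefSeq. Alternatives were DESeq2 1.42.0, limma-voom (limma 3.58.1), other scalings and filters, a replicate block, each liver left out in turn and summed GF+PBS pairs.

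The members and all lists were chosen with earlier results of these data known. Named were the 10 genes, every called gene of the pathway list, a set of its receptors, SMADs, iron sensors and inputs whatever their values, the 3 genes most like *Id1*, *Id3* and *Hamp*, and called cell markers. A gene of the pathway list is not reported here and is in none of its counts. p-values measure the spread between mice of 1 experiment. The lowest count among the 10 genes was 38 reads, for *Bmp6* in GF+MEV replicate 2, and counting error adds to the spread between mice at such counts.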

Additional observations from a re-analysis of the deposited data

Results flagged for a closer look

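In 5 of 78 groups of 5 livers, over the genes examined, a single liver lay far from the other 4 by Dixon's test, where chance gives about 1 in 20, or 3.9 of 78. GF+PBS replicate 2 was far from its group in 3 genes: it was highest for *Smad7* (20.6 CPM against 9.58 to 11.9 in the other 4) and for *Smad9* (27.9 CPM against 11.1 to 15.6), and lowest for *Socs3* (13.6 CPM against 24.4 to 26.4). GF+MEV replicate 4 was highest in its group for *Hamp* (714 CPM against 441 to 520) and *Hfe* (58.6 CPM against 51.1 to 53.0). The causes were not tested.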

How the results depend on the processing

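Of 39 genes of the lists that were named and refitted, 26 kept their direction and their side of the threshold under all alternatives, *Id2*, *Id3* and *Smad6* among them. Genes picked for likeness or mentioned after their values were seen were not refitted. The number of genes called fell from 928 to 561 with the GF+PBS pairs summed, which leaves fewer samples, and ran from 696 to 926 with 1 liver left out. Of the 10 genes, 4 were called lower, and 3 to 4 with 1 liver left out. The count called lower was 5 with limma-voom and with upper-quartile scaling, and 3 with the GF+PBS pairs summed. The count called higher was 0, and became 1 (*Smad9*) with DESeq2, with limma-voom and without GF+PBS replicate 2, so it ran from 0 to 1 with 1 liver left out. In the pathway list, 4 were called higher, 3 with the pairs summed and 3 to 5 with 1 liver left out. With DESeq2 6 were called higher, and with its size factors in edgeR 5. In the same list 4 were called lower, and 4 to 6 with 1 liver left out. That count was 3 with the pairs summed and 5 with upper-quartile scaling. *Bmpr1a*, at -0.04, ran from -0.10 to 0.021 with 1 liver left out, turning to 0.021 without GF+MEV replicate 2 and to 0.0014 without GF+PBS replicate 2. The cause of these changes was not tested. The replicate numbers did not pair the samples: deviations of same-numbered livers correlated at -0.188 to 0.166, and 3 of 10 livers correlated best with their own number. With the replicate block, 792 genes were called, and of the 10 genes 5 were called lower, *Id1* (-0.83) in addition, and *Smad9* (0.69) was called higher.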

Other observations

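Markers of other cells gave these values. Of 4 B cell markers, *Cd79a* (-0.87, SE 0.13, edgeR adjusted p = 0.0071) and *Cd79b* (-0.76, SE 0.18, edgeR adjusted p = 0.032) were called lower in GF+MEV, and their summed level was 3.86 to 4.87 CPM in GF+MEV and 6.60 to 8.44 CPM in GF+PBS. The *Cd79b* call was lost without any 1 of 6 livers (GF+MEV replicates 2, 4 and 5 and GF+PBS replicates 3, 4 and 5), at -0.77 to -0.66. Counts were low, 14 to 54 reads per library for *Cd79a* and 15 to 56 for *Cd79b*, so counting error adds to their spread. Of 3 bile duct markers tested, *Krt19* was called higher (3.87, SE 0.70, edgeR adjusted p = 0.00063), at 8.20 ± 5.80 against 0.560 ± 0.190 CPM (SD, n = 5 each), while *Sox9* (-0.98, SE 0.38) and *Spp1* (0.52, SE 0.24, exons shared with *Gm42793*) were not called. At an unadjusted p under 0.05, 2 of the 3 were higher and 1 lower. *Krt19* had only 6 to 13 reads per library in GF+PBS. Of 8 hepatocyte markers, *Cps1*, a urea cycle enzyme, was called higher (0.38, SE 0.13, edgeR adjusted p = 0.041), a call lost without any 1 of 8 livers (all but GF+MEV replicate 2 and GF+PBS replicate 5), at 0.32 to 0.41. Of 8 stellate cell, 5 erythroid and 4 skeletal muscle markers, edgeR, DESeq2 and limma-voom called 0, and at an unadjusted p under 0.05 the numbers were 1, 0 and 1, all lower. The skeletal muscle markers summed to 190, 228, 664, 479 and 642 CPM in GF+PBS replicates 1 to 5 and to 224 to 310 CPM in GF+MEV. The cause of this spread among GF+PBS livers was not tested.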
